A study of Mus musculus with 24 samples.

Results

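The mitochondrial ribosomal protein genes were described in small intestinal crypts and villi of mice with and without Rb and the activating E2f transcription factors. They were taken as every gene with a probe set whose single gene symbol on the platform was Mrpl or Mrps followed by a number and at most 1 letter. The rule found 76 genes among the 18193 measured, 47 named for the large subunit and 29 for the small subunit. They had 156 probe sets, and for each gene the 1 with the largest mean over the 24 arrays is given. Expression was measured on Affymetrix mouse arrays, on which several short oligonucleotides (a probe set) report 1 transcript, with 3 arrays in each of 8 groups.

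The groups were crypts and villi of 4 genotypes: wild type (WT), Rb, TKO (E2f1-/-;E2f2-/-;E2f3-/-) and QKO (E2f1-/-;E2f2-/-;E2f3-/-;Rb-/-). Stem cells and their dividing progeny lie in the crypts, and the villi carry differentiated cells that have largely stopped cycling. All mice, controls included, were 2 months old, of a C57BL/6;FVB strain, and had been injected intraperitoneally with beta-naphthoflavone 7 days before harvest. This compound is a ligand of the aryl hydrocarbon receptor and is used to induce Cre from a Cyp1a1 promoter in mice that carry such a transgene; the labels name neither a Cre nor the cells it would reach. The comparisons ask how these genes differ between dividing and differentiated epithelium, and whether loss of Rb, of E2f1 to E2f3 or of both alters them.

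Mitochondria make the core subunits of the respiratory chain on ribosomes of their own. The RNAs of these ribosomes come from mitochondrial DNA, whereas all of their proteins are encoded in the nucleus, made in the cytosol and imported. The small subunit binds the mRNA and reads its codons, and the large subunit joins the amino acids and feeds the new chain into the inner membrane. Rb restrains E2f factors, whose known targets include the genes for DNA synthesis and mitosis.

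The 76 genes are spread over 17 chromosomes, with 11 of them on chromosome 11 and 8 on chromosome 17. All 76 had a mean over the arrays above 6.39, the median log2 value of all genes. A single probe set was present for 34 of them and several for 42. Of the 76 genes, 67 had a promoter in RefSeq (GRCm38.p6), from 250 bases before to 50 bases after the start. The other 9 were Mrps28, Mrpl4, Mrpl13, Mrpl54, Mrps34, Mrpl15, Mrpl19, Mrpl38 and Mrps35.

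Promoter stretches from 150 bases before to 30 bases after the start are shown for 7 genes on which the results below turn. Most genes of the set share a function rather than a position. Both strands were searched for the GC-rich motif of NRF1 (nuclear respiratory factor) with 1 inner base left free, CCGGAAG (GABPA and other ETS factors), AAGATGGC (YY1), and TTTCCCGC and TTTGGCGC (E2f). Capitals mark a match to 1 of these 5 on either strand. Mrps22 (chr9:98601650-98601829, minus strand) and Mrps27 (chr13:99344636-99344815, plus strand) are among the 6 largest WT falls from crypts to villi. Mrpl12 (chr11:120484487-120484666, plus strand) and Mrpl45 (chr11:97315566-97315745, plus strand) were called lower in every genotype, though some of these calls rested on single arrays. Mrps12 (chr7:28741792-28741971, minus strand) held TTTCCCGC and Mrpl46 (chr7:78783060-78783239, minus strand) faces the start of a second gene of the set. Mrps36 (chr13:100744630-100744809, minus strand) went the other way from most.
Mrps22 promoter: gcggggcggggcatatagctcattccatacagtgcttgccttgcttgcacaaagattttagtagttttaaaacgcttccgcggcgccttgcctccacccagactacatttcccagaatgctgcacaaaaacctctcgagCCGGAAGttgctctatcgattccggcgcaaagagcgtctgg
Mrps27 promoter: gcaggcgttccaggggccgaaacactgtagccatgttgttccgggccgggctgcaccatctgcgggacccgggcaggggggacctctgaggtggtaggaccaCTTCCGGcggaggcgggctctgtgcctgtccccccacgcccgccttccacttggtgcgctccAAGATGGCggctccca
Mrpl12 promoter: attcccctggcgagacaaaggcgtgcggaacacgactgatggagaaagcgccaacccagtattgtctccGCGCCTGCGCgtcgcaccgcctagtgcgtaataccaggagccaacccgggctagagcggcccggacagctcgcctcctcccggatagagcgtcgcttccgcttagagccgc
Mrpl45 promoter: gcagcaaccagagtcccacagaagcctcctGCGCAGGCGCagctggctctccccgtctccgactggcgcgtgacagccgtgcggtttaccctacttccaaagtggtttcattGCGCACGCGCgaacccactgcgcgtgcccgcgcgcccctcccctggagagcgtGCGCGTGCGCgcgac
Mrps12 promoter: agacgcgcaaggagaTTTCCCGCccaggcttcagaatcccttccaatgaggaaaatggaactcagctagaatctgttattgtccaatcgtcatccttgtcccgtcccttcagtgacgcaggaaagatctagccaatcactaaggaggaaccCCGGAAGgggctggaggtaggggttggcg
Mrpl46 promoter: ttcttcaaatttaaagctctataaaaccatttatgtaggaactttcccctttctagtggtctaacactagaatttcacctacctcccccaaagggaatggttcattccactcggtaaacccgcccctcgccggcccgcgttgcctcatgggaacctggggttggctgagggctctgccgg
Mrps36 promoter: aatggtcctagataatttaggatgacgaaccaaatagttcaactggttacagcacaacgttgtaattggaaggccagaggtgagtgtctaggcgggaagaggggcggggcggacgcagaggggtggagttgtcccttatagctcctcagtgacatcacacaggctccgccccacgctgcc
The Mrps22 stretch holds CCGGAAG just before the start. The Mrpl45 stretch has the NRF1 letters at 3 places, whereas Mrpl46 and Mrps36 show none of the 5 motifs in these windows.

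Over the whole 300-base window, CCGGAAG was present in 24 of 67 promoters (35.8%), beside 9.12% of 27025 RefSeq promoters and 13.8% of the 14452 promoters of tested genes. AAGATGGC was in 12 of 67 (17.9%), beside 2.88% of all and 3.70% of tested genes. The NRF1 motif was also in 12 of 67 (17.9%), beside 4.78% and 7.95%. Of those, 3 (4.48%) held the strict palindrome, which is also a match to the form with a free base, beside 0.977% of all promoters and 1.58% of those of tested genes. The 2 E2f motifs were rare: TTTCCCGC was in 1 of 67 (1.49%, Mrps12), beside 1.11% of all and 1.70% of tested genes, and TTTGGCGC was in 1 of 67 (1.49%, Mrps23), beside 0.537% and 0.851%. The Myc E-box CACGTG was in 5 of 67 (7.46%), beside 7.24% of all and 9.02% of tested genes. CCAAT was in 38.8% of the set, 37.9% of all promoters and 38.2% of those of tested genes. TATAAA was in 5.97%, 14.2% and 9.87%. The median GC content was 58.3% in the set, 52.7% over all promoters and 58.7% over tested genes. The median observed over expected CpG ratio was 0.82 in the set, 0.39 over all and 0.67 over tested genes. These matches are descriptions of letters in a window and were not tested.

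Several arrays stood apart before any result. Rb1 itself was 8.46 on the WT crypts 3 array, below the other WT crypt arrays (10.31 and 10.59), and 10.25 on the Rb crypts 2 array, above the other Rb crypt arrays (8.23 and 8.87). Both arrays thus go against their labels, and WT crypts and Rb crypts here mean the arrays labelled so. Of the E2f genes, E2f2 was lower in TKO than WT crypts (-1.01 ± 0.19) and in QKO than Rb crypts (-0.99 ± 0.19) and villi (-1.62 ± 0.19). In villi of TKO, E2f1, E2f2 and E2f3 had means of 6.99, 7.91 and 8.09 beside 6.65, 7.55 and 7.94 in WT villi, and E2f1 and E2f3 were not called in any of these 4 comparisons. Their probe sets thus do not bear out the TKO label in villi, and whether they read the deleted parts is not in the labels. The mean of the poly-A controls, which are added before labelling, was 5.44 to 7.13 on the WT and Rb arrays and 9.70 to 11.89 on the TKO and QKO arrays, so E2f status and this technical split cannot be told apart. By Eif2s3y, a Y-linked gene, the WT arrays and the Rb crypt arrays were from females, the QKO arrays from males, and the other groups were mixed. Array medians were 4.97 to 5.08 except QKO crypts 2 (5.17) and QKO villi 3 (5.26). Whether each array stands for its own animal is not in the labels, so p-values measure only the spread between these arrays. As a check of the tissue, going from crypts to villi of WT, all 4 stem cell and all 3 Paneth markers fell and 4 of 5 enterocyte markers rose. In bulk tissue, fewer cells of a type and less RNA per cell cannot be told apart.

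The mean log2 level over the 76 genes was higher on every crypt array than on every villus array of the same genotype. It was 9.94 ± 0.10 (SD, n = 3) in WT crypts and 9.39 ± 0.10 in WT villi. In Rb it was 9.84 ± 0.17 in crypts and 9.45 ± 0.08 in villi. In TKO it was 10.14 ± 0.10 in crypts and 9.63 ± 0.04 in villi, and in QKO 10.22 ± 0.21 in crypts and 9.49 ± 0.09 in villi. Ordered from the top, the groups ran QKO crypts, TKO crypts, WT crypts, Rb crypts, TKO villi, QKO villi, Rb villi and WT villi. The arrays of each pair of neighbours in this order overlapped in range, except TKO crypts over WT crypts, where the lowest TKO array (10.04) lay just above the highest WT array (10.04), and TKO villi over QKO villi, where 9.59 stood against 9.57. Taken singly, 46 genes had their highest group mean in QKO crypts and 15 in TKO crypts, and 30 had their lowest in WT villi, 22 in QKO villi and 20 in Rb villi. The same counts were not made over all genes. The mean over all genes was also highest in QKO crypts, at 6.78, beside 6.76 in QKO villi and 6.68 in WT, Rb and TKO crypts.

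**Figure D1:**
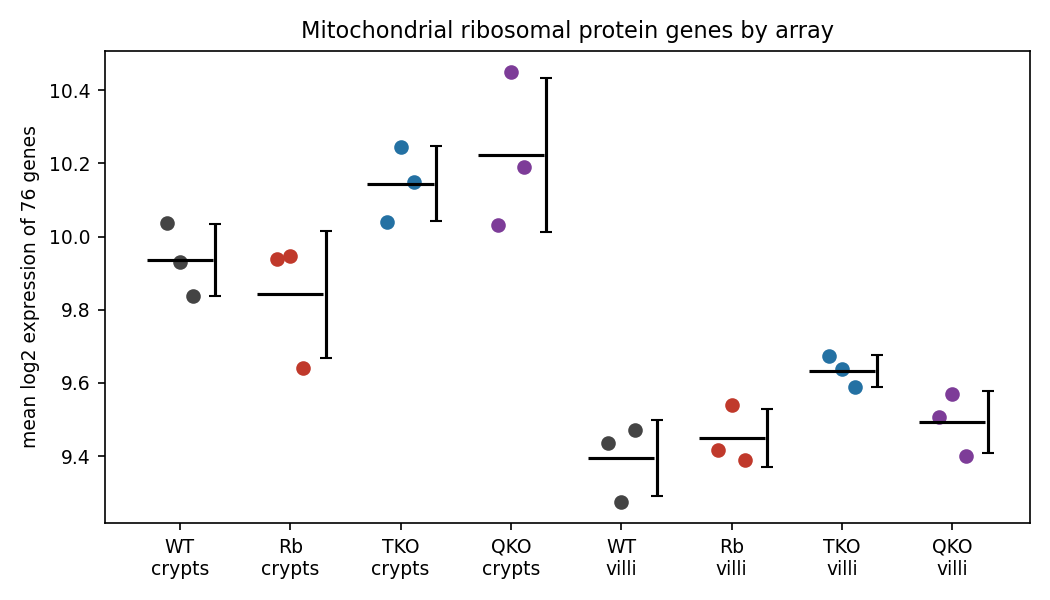
The mean log2 expression of the 76 genes on each array is plotted for 8 groups, with points for the 3 arrays, a line at the group mean and a bar of 1 SD on each side. The crypt arrays lie between 9.64 and 10.45 and the villus arrays between 9.28 and 9.67.

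Differences are given as log2 differences ± SE from 1 fit over all arrays, with 0.05 as the upper limit of the adjusted p for a call. In WT, 53 of the 76 genes differed between villi and crypts, 51 of them lower in villi and 2 higher, with a median of -0.56 over the 76. Over all 18193 genes 37.4% were called, 18.6% as lower, and the median was 0.08. In a fit of only the brighter genes, the 9161 with a mean above the median of all genes, 59.1% were called. Of these 9161 genes 2352 were higher and 3065 lower. That fit adjusted p over the brighter genes only, whereas the calls of the 76 set beside it come from the fit of all genes. All 76 are among these brighter genes. The arrays of the 2 groups did not overlap for any of the 53, and for 59 of the 76 in all. The share of all genes without overlap was not worked out, so these counts have no background to be read against. Of the 47 genes named for the large subunit, 30 were lower and 1 higher (median -0.51). Of the 29 named for the small subunit, 21 were lower and 1 higher (median -0.72). Leaving out single arrays gave 45 to 53 calls.

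Mrps22, a small subunit protein whose human gene is mutated in a combined respiratory chain deficiency, read 10.22, 10.16 and 10.10 in WT crypts and 8.91, 8.78 and 8.78 in WT villi. All 3 crypt arrays lay far above the villus arrays, a difference of -1.34 ± 0.17 (adjusted p = 2.8e-06). Mrps18b, 1 of 3 copies of the S18 family, read 9.95, 9.85 and 9.80 in crypts and 8.83, 8.34 and 8.63 in villi, and fell by 1.26 ± 0.16 (adjusted p = 2.9e-06). The 3 copies did not move alike in size: Mrps18a, whose protein sits in the large subunit despite its name, fell by 0.48 ± 0.15, and Mrps18c differed by -0.21 ± 0.10 (adjusted p = 0.12). Differences between the copies were not tested. Among other small subunit genes, Mrps27 fell by 1.23 ± 0.24, Mrps5 by 1.20 ± 0.17 and Mrps2 by 1.10 ± 0.14. Mrps12, the decoding centre protein whose promoter is shown above, read 9.86, 9.81 and 9.72 in crypts and 9.26, 9.03 and 9.16 in villi. Its groups did not overlap, and the difference was -0.65 ± 0.14 (adjusted p = 0.0012).

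Of the large subunit, Mrpl19 read 9.26, 8.96 and 8.76 in WT crypts and 7.69, 7.63 and 7.51 in WT villi. This was the largest fall of the 76, by 1.38 ± 0.18 (adjusted p = 4.8e-06). Mrpl38 fell by 1.31 ± 0.20 and Mrpl37 by 1.30 ± 0.18. Mrpl12, the stalk protein that also binds the mitochondrial RNA polymerase, read 11.79, 11.71 and 11.55 in crypts and 11.06, 10.75 and 11.13 in villi. The groups stood apart, with a difference of -0.70 ± 0.14 (adjusted p = 0.00044). The stalk base genes Mrpl10 and Mrpl11 fell by 0.69 ± 0.12 and 0.56 ± 0.19, and Mrpl3, which joins the large subunit early, by 0.82 ± 0.14. The mean of the Mrpl11 probe sets differed by -0.31 and was not called (limma, adjusted p = 0.1). At the exit site, Mrpl45, which anchors the ribosome to the inner membrane, fell by 0.80 ± 0.13, whereas Mrpl24 differed by -0.21 ± 0.09 (adjusted p = 0.076) and Mrpl23 by -0.45 ± 0.19 (adjusted p = 0.063). The call of Mrpl11 was lost without WT crypts 1, WT crypts 2, WT villi 2 or WT villi 3 (adjusted p 0.061 to 0.08) and that of Mrps18a without WT crypts 1 or WT villi 2 (0.076 and 0.093), whereas Mrps22, Mrps18b, Mrpl19, Mrpl37, Mrps2 and Mrpl12 were called in each of the leave-one-out fits.

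The 2 genes higher in WT villi were Mrps36 and Mrpl14. Mrps36 is named for the mitoribosome, but its protein is a component of the alpha-ketoglutarate dehydrogenase complex of the citric acid cycle. It read 10.30, 10.07 and 10.03 in WT crypts and 11.01, 10.84 and 11.14 in WT villi. The villus arrays were all above the crypt arrays, and the difference was 0.86 ± 0.16 (adjusted p = 0.00017). Mrpl14 was higher by 0.35 ± 0.12 (adjusted p = 0.027), a call lost without WT crypts 2, WT crypts 3 or WT villi 3 (adjusted p = 0.054, 0.098 and 0.094). The 23 genes that were not called had lower villus means in 14 cases and higher ones in 9. With each array centred on its median, which shifted the all-gene median by 0.15 in this comparison, 44 genes were lower and 5 higher.

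**Figure D2:**
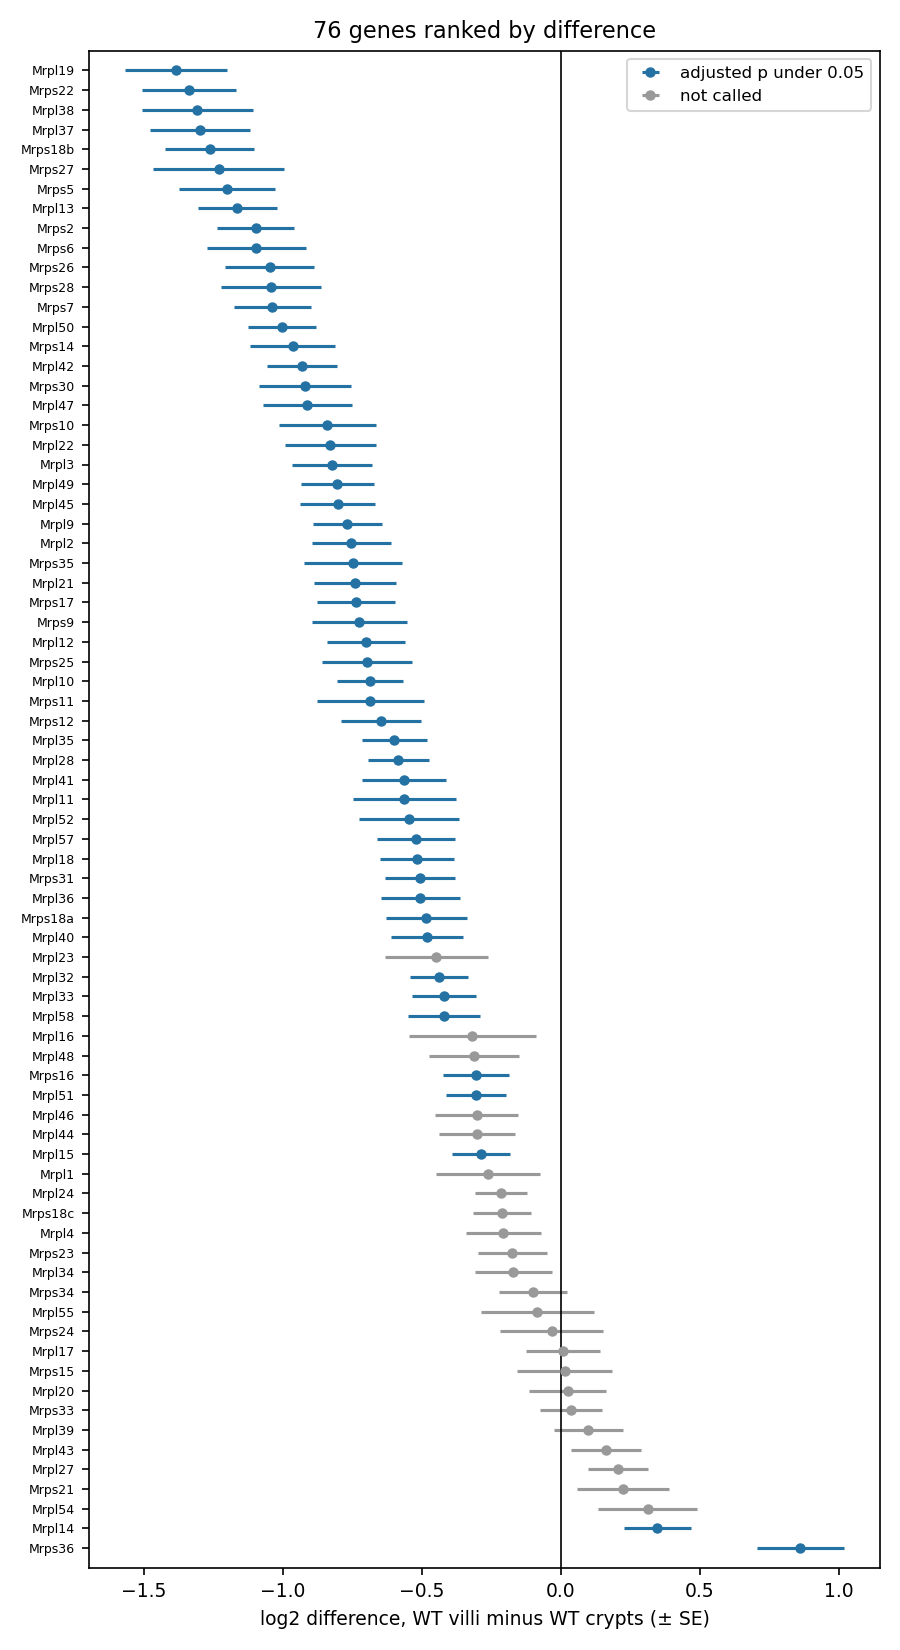
The log2 difference of WT villi minus WT crypts is plotted for each of the 76 genes with bars of 1 SE, ranked from Mrpl19 at -1.38 to Mrps36 at 0.86. Blue points are the 53 genes called and grey points the other 23.

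The same direction held in the 3 mutant genotypes, which share no arrays with WT or with each other in these comparisons. In Rb, 31 genes were lower in villi and 0 higher, with a median of -0.39 (of all genes 7.61% were higher and 9.65% lower). In TKO, 55 were lower and 0 higher, with a median of -0.54 (6.43% of all genes higher, 8.99% lower). In QKO, 68 were lower and 0 higher, with a median of -0.74 (33.4% of all genes called, 19.9% lower). Of the brighter genes fitted alone 36.6% were called in Rb, 35.7% in TKO and 53.2% in QKO. Called lower among these 9161 genes were 1827, 1929 and 3287 in that order. Lower in all 4 genotypes were 30 of the 76, beside 4.11% of all genes, while 16 were lower in 3, 12 in 2, 13 in 1 and 5 in none. The 5 lower in none were Mrpl27, Mrpl54, Mrpl55, Mrps15 and Mrps36. The Rb count was 14 without the array labelled Rb crypts 2, which goes against its label, and 13 without both such arrays. By Eif2s3y the Rb crypt arrays were all female, whereas Rb villi 1 and 3 were male. The TKO count was 22 without TKO villi 3 and 18 without TKO crypts 2.

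The largest falls in QKO were those of Mrps27 (-1.36 ± 0.24), Mrps30 (-1.27 ± 0.17) and Mrpl37 (-1.20 ± 0.18). Mrps30, whose protein sits in the large subunit despite its name, read 9.42, 9.75 and 9.67 in QKO crypts and 8.55, 8.59 and 7.90 in QKO villi. In TKO they were those of Mrpl19 (-0.85 ± 0.18), Mrps10 (-0.84 ± 0.17) and Mrpl11 (-0.83 ± 0.19). In Rb they were those of Mrps18b (-1.08 ± 0.16), Mrps27 (-1.06 ± 0.24) and Mrps5 (-0.93 ± 0.17). Mrpl12 fell by 0.73 ± 0.14 in Rb, 0.52 ± 0.14 in TKO and 0.85 ± 0.14 in QKO. Mrps12 fell by 0.63 ± 0.14, 0.52 ± 0.14 and 0.60 ± 0.14 in the same order. Without TKO villi 3 or TKO crypts 2 the TKO falls of Mrpl12 (adjusted p = 0.087 and 0.12) and Mrps12 (0.1 and 0.13) were not called. The Rb fall of Mrpl45 was not called without Rb crypts 1, Rb crypts 2, Rb villi 1 or Rb villi 3 (limma, adjusted p 0.05 to 0.095). Its TKO fall was not called without TKO crypts 2 or TKO crypts 3 (0.078 and 0.059). Mrps36 differed by 0.16 ± 0.16 in Rb, -0.03 ± 0.16 in TKO and -0.04 ± 0.16 in QKO, none of them called.

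Other values moved with the compartment. The hybridization controls read 10.81 to 11.16 in WT crypts and 10.23 to 10.47 in WT villi, and 10.93 to 11.11 and 10.28 to 10.35 in Rb. In TKO and QKO they were the higher in villi instead, at 10.57 to 10.70 in crypts and 10.76 to 10.95 in villi of TKO, and at 10.55 to 10.98 and 11.23 to 11.45 in QKO. The 3 T cell markers Cd3e, Cd3g and Cd8a had a mean level of 7.29 to 8.48 in WT crypts and 8.25 to 8.67 in WT villi (0 of 3 called), and of 6.04 to 6.58 in QKO crypts and 9.14 to 9.73 in QKO villi (3 of 3 higher). The 3 goblet markers were also higher in QKO villi, at 12.80 to 13.50 against 12.24 to 12.75. The 3 enteroendocrine markers had a mean level of 11.02 to 11.94 in QKO villi and 9.83 to 10.29 in QKO crypts (1 of 3 higher). The poly-A controls read 9.70 to 10.37 in QKO crypts and 11.28 to 11.89 in QKO villi. The Gapdh 3′ minus 5′ difference was higher on every villus array than on every crypt array in WT (-0.13 to 0.27 against -0.17 to -0.14) and in Rb (-0.08 to -0.06 against -0.18 to -0.12). For beta-actin the villus and crypt arrays overlapped in WT (0.80 to 1.36 against 0.75 to 0.96) but not in Rb (0.86 to 0.91 against 0.72 to 0.83). None of these T cell, goblet or enteroendocrine markers lay below the median of all genes in every group. Their part in the falls of the 76 genes was not tested.

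The rest of the mitochondrial protein synthesis machinery went the same way in WT. Of 4 mitoribosome proteins without an Mrp symbol, all 4 were lower in villi, such as Ptcd3 (-1.32 ± 0.17). Of 21 genes of mitoribosome assembly and rRNA modification 16 were lower and 0 higher (median -0.82), with C1qbp at -1.84 ± 0.16 and the helicase gene Dhx30 at -1.15 ± 0.14. Of 9 mitochondrial translation factors 6 were lower (median -0.76), among them the elongation factors Tsfm (-1.37 ± 0.17) and Gfm1 (-0.97 ± 0.16). Of 17 mitochondrial aminoacyl-tRNA synthetases, which load tRNAs with amino acids, 14 were lower (median -0.60), with Yars2 at -1.93 ± 0.27 and Iars2 at -1.54 ± 0.21. Of 13 genes of mitochondrial DNA replication and transcription 11 were lower and 1 higher (median -0.88), and the mitochondrial transcription factor gene Tfam fell by 1.21 ± 0.12. Of 10 regulators of nuclear genes for mitochondria 5 were lower and 2 higher. Pprc1 (-2.34 ± 0.24) and Myc (-2.30 ± 0.29) were among the lower, and Ppargc1a, a coactivator of mitochondrial biogenesis, was higher by 1.18 ± 0.24.

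The nuclear genes for subunits of oxidative phosphorylation, the complexes that the mitoribosome's products join, had a different balance. Of 70 measured, 14 were higher in WT villi and 8 lower, with a median of 0.09, and the complex I genes Ndufa1 (0.67 ± 0.11) and Ndufb9 (0.52 ± 0.10) were among the higher. The counts of the same 70 were 5 higher and 9 lower in Rb, 0 and 10 in TKO, and 0 and 32 in QKO (medians 0.01, -0.12 and -0.26). In each genotype the median of the 76 mitochondrial ribosomal protein genes was below that of the 70, a difference that was not tested. The cytosolic ribosomal proteins, of which 44 of 78 listed were measured, were lower in 40 and higher in 1 in WT, with a median of -0.83. The 30 cytosolic ribosome biogenesis factors were all lower in WT villi (median -1.62), and so were the 15 dividing cell markers (median -2.70), with Mcm7 at -2.59 ± 0.14.

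**Figure D3:**
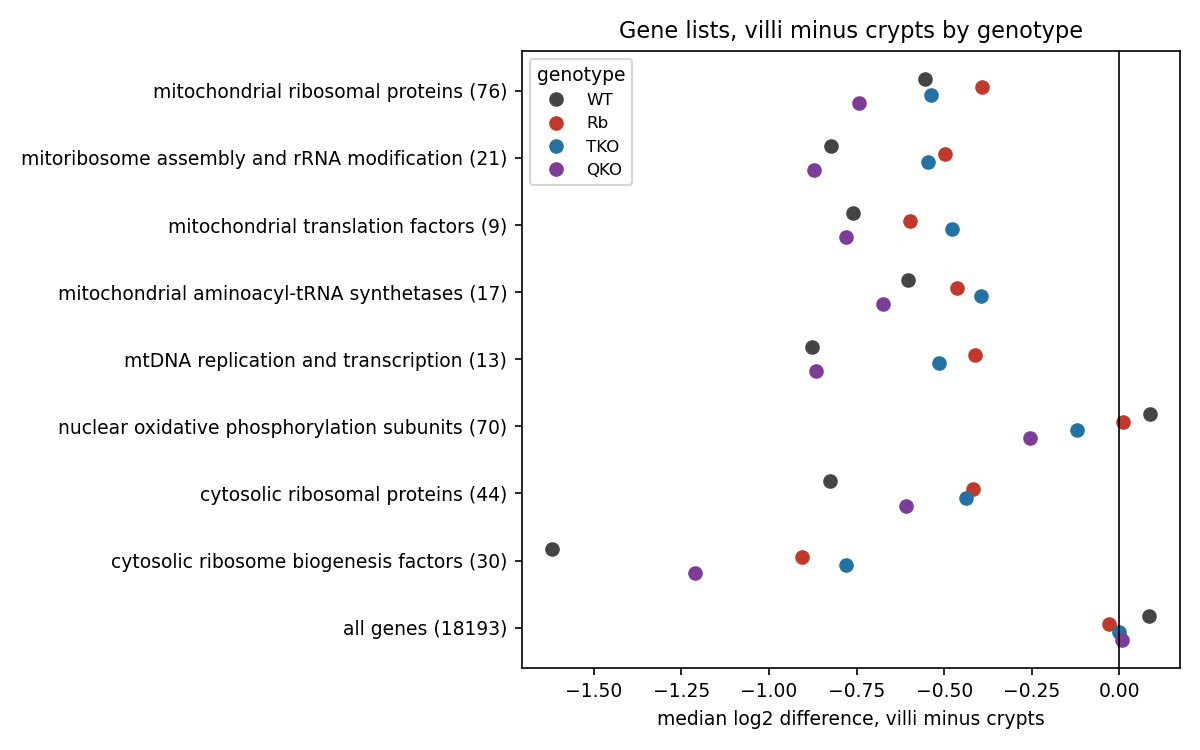
The median log2 difference of villi minus crypts is plotted for 8 gene lists and for all genes, with the number of genes measured in brackets and 1 point per genotype. The mitochondrial ribosomal protein genes lie between -0.74 and -0.39, and the oxidative phosphorylation subunits between -0.26 and 0.09.

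Of the 76 genes 0 were called in Rb minus WT crypts by limma and 0 had an unadjusted p under 0.05, with a median of -0.09. Over all genes 0 were called (0%), and 709 had an unadjusted p under 0.05. Since 1 array of each group goes against its label by Rb1, this comparison says little about the genotype.

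Some of the genes were higher in TKO crypts. In TKO minus WT crypts 8 genes were higher and 0 lower, with a median of 0.24, beside 1.93% of all genes called higher and 2.8% lower (4.73% in all). Among the 9161 brighter genes fitted alone 10.9% were called, 371 as higher and 628 as lower. All 8 are named for the large subunit. Mrpl44, a large subunit protein with an RNase III-like fold, read 9.38, 9.29 and 8.93 in WT crypts and 9.99, 10.03 and 10.02 in TKO crypts. The TKO arrays lay close together above all WT arrays, a difference of 0.81 ± 0.14 (adjusted p = 0.0018). Mrpl54 and Mrpl16 were higher by 0.81 ± 0.18 and 0.93 ± 0.23, and Mrpl46 by 0.68 ± 0.15. The count of 8 was 3 without WT crypts 2, 1 without WT crypts 3, 5 without TKO crypts 2 and 4 without TKO crypts 3, and it was 4 with sex as a covariate. Mrpl44 was called in each of these fits. Mrpl16 was not called with sex as a covariate (limma, adjusted p = 0.13). Without WT crypts 3 the adjusted p was 0.12 for Mrpl16 and 0.059 for Mrpl54, and that of Mrpl16 was also above 0.05 without WT crypts 2, TKO crypts 2 or TKO crypts 3 (0.067 to 0.092).

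In QKO minus Rb crypts 31 of the 76 were higher and 0 lower, with a median of 0.36, beside 13.4% of all genes called higher and 3.78% lower. Among the 9161 brighter genes fitted alone 29.8% were called in either direction, 2169 as higher and 562 as lower. Of the 31, 18 are named for the large and 13 for the small subunit. Mrpl16 read 9.88, 9.14 and 8.71 in Rb crypts and 10.27, 10.39 and 10.45 in QKO crypts. The Rb arrays were widely spread, all below the QKO arrays, and the difference was 1.12 ± 0.23 (adjusted p = 0.0019). With sex as a covariate Mrpl16 was higher by 0.83 and not called (limma, adjusted p = 0.086). Mrpl54 was higher by 1.08 ± 0.18 and Mrpl46 by 0.88 ± 0.15. The difference from the count in TKO minus WT crypts was not tested. Mrpl44 read 9.34, 9.34 and 8.93 in Rb crypts and 9.89, 10.09 and 9.90 in QKO crypts, a difference of 0.75 ± 0.14. With each array centred on its median, which shifted the all-gene median by -0.16 here, 17 were higher and 2 lower. The count was 20 without Rb crypts 3 and 19 without QKO crypts 2, and 16 with sex as a covariate, where the median was 0.42. The Rb crypt arrays were female and the QKO arrays male. The sex term was thus set only by the mixed groups, Rb villi, TKO crypts and TKO villi. These crypt arrays cannot tell sex and genotype apart, with or without the covariate.

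The E2f comparisons of crypts moved together with other values. In crypts the 3 goblet markers fell both from WT to TKO and from Rb to QKO, with mean levels of 13.49 to 13.88 in WT, 13.75 to 13.93 in Rb, 12.36 to 12.69 in TKO and 12.24 to 12.75 in QKO. The 3 Paneth markers were not called in either, with mean levels of 13.31 to 13.71 in WT, 12.08 to 12.88 in TKO, 12.12 to 13.63 in Rb and 11.65 to 12.26 in QKO. The 3′ minus 5′ difference of Gapdh, a sign of RNA quality, was -0.17 to -0.14 in WT and -0.18 to -0.12 in Rb crypts, and 0.01 to 0.16 in TKO and 0.07 to 0.23 in QKO crypts, with no overlap. That of beta-actin overlapped between WT (0.75 to 0.96) and TKO crypts (0.86 to 0.97). It did not overlap between Rb (0.72 to 0.83) and QKO crypts (1.11 to 1.20). Both comparisons lie across the split of the poly-A controls, as do the same comparisons of villi. The part of any of these in the higher values was not tested. Of the other mitochondrial lists, 0 of 21 assembly genes rose and 1 fell in TKO minus WT crypts, and 5 rose in QKO minus Rb crypts. Of the 70 oxidative phosphorylation subunits 8 rose and 0 fell in the first and 20 and 0 in the second.

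Between QKO and TKO crypts 0 of the 76 genes were called by limma, beside 1.61% of all genes, 1.42% as higher. Of the brighter genes fitted alone 2.87% were called. At the looser limit of an unadjusted p under 0.05 there were 5 of the 76, which is not to be set against those shares. The share of all genes at that limit is not given here, so this count has no background and is not read as a result. The median of 0.07 turned to -0.08 with centred arrays, where all genes shifted by -0.15 in the median, and to -0.07 with quantile normalization.

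In Rb minus WT villi 10 of the 76 genes were higher and 2 lower, with a median of 0.06, beside 14.8% of all genes called, 8.59% higher and 6.19% lower. The share called among the 9161 brighter genes fitted alone was 28.9%, with 1588 higher and 1056 lower. Mrpl13, a large subunit protein, read 9.83, 9.65 and 9.84 in WT villi and 10.59, 10.52 and 10.46 in Rb villi. The Rb arrays were all above the WT arrays, a rise of 0.75 ± 0.14 (adjusted p = 0.00073). Its other 2 bright probe sets rose as well, by 0.71 and 0.69. Mrps22 read 8.91, 8.78 and 8.78 in WT villi and 9.35, 9.46 and 9.46 in Rb villi, a rise of 0.60 ± 0.17 (adjusted p = 0.019) that was lost without any 1 of 4 single arrays (adjusted p 0.059 to 0.068). Mrpl50 rose by 0.50 ± 0.12, Mrpl49 by 0.49 ± 0.13 and Mrpl15 by 0.46 ± 0.10. The mean of the Mrpl15 probe sets rose by 0.35 and was not called (limma, adjusted p = 0.092). The 2 genes that fell were Mrps36, by 0.67 ± 0.16, and Mrpl27, by 0.41 ± 0.11. Mrps36 read 10.30, 10.60 and 10.06 in Rb villi, below all 3 WT villus arrays. The rise of Mrpl49 (without WT villi 1 or Rb villi 2, adjusted p = 0.053 and 0.08) and the fall of Mrpl27 (without WT villi 3 or Rb villi 3, 0.077 and 0.065) each rested on single arrays, whereas Mrpl13, Mrpl50 and Mrps36 were called in each fit. With centred arrays 7 genes were higher and 3 lower. The count of 12 was 7 without WT villi 2, WT villi 3 or Rb villi 1, 5 without Rb villi 2, 6 without Rb villi 3 and 6 with sex as a covariate.

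In TKO minus WT villi, which lies across the poly-A split, 17 of the 76 genes were higher and 0 lower, with a median of 0.27, beside 6.21% of all genes called higher and 3.57% lower (9.77% in all). The share called among the 9161 brighter genes fitted alone was 21.9%, with 1226 higher and 778 lower. Mrpl19 read 7.69, 7.63 and 7.51 in WT villi and 8.47, 8.54 and 8.31 in TKO villi. The TKO arrays were all above the WT arrays and below the WT crypt arrays, and the rise was 0.83 ± 0.18 (adjusted p = 0.0047). Mrpl45 read 8.23, 8.18 and 7.93 in WT villi and 8.74, 8.70 and 8.93 in TKO villi, a rise of 0.68 ± 0.13 (adjusted p = 0.0021). Mrps27 rose by 0.84 ± 0.24, Mrps6 by 0.76 ± 0.18, Mrps2 and Mrps28 by 0.65 each and Mrps18b by 0.64 ± 0.16. The calls of Mrps27 and Mrps28 were lost without any 1 of 4 single arrays (adjusted p 0.054 to 0.13), and those of Mrps6 and Mrps18b without WT villi 2 (0.064 and 0.082). With centred arrays 10 genes were higher and 4 lower. The count of 17 was 6 without WT villi 2, 11 without WT villi 3, 10 without TKO villi 1, 8 without TKO villi 2 and 7 with sex as a covariate. Both villus comparisons share the WT arrays, so their calls are not independent of each other.

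Dividing cell markers moved with both. All 15 rose in Rb villi (median 2.36), and 13 rose in TKO villi (median 1.57). Their mean level was 7.60 to 7.97 in WT villi, 10.12 to 10.31 in Rb villi, 9.04 to 9.64 in TKO villi and 10.23 to 10.75 in WT crypts. Over the 76 genes the mean was 9.39 to 9.54 in Rb villi and 9.28 to 9.47 in WT villi. Genes for DNA synthesis and mitosis are known E2f targets. In these genotypes the markers therefore cannot be read as a measure of the number of dividing cells. Of the cytosolic ribosome biogenesis factors 10 of 30 rose in Rb villi and 26 of 30 in TKO villi, among them Npm1 in TKO villi (1.26 ± 0.16). Of the mitochondrial lists, Tfam rose by 1.07 ± 0.12 in Rb villi and 0.60 ± 0.12 in TKO villi, and the release factor gene Mtrf1l by 1.29 ± 0.18 in Rb villi. Of the 70 oxidative phosphorylation subunits 5 fell and 0 rose in each, Ndufa1 by 0.52 ± 0.11 and 0.53 ± 0.11. The 3 goblet markers fell in TKO villi, with mean levels of 11.98 to 12.55 beside 13.54 to 13.73 in WT. The part of any of these in the rises was not tested.

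In QKO minus Rb villi, also across the poly-A split, 12 genes were higher and 12 lower, with a median of 0.08, beside 22.2% of all genes called, 14.2% higher and 8.02% lower. The share called among the 9161 brighter genes fitted alone was 34.6%, with 1762 higher and 1410 lower. Mrpl41 read 9.15, 9.42 and 9.35 in Rb villi and 10.28, 10.08 and 10.12 in QKO villi, a rise of 0.85 ± 0.15 (adjusted p = 0.0004) with no overlap. Mrpl49 read 9.54, 9.79 and 9.54 in Rb villi and 8.92, 9.15 and 8.94 in QKO villi, a fall by 0.62 ± 0.13 (adjusted p = 0.0017) with no overlap. Mrpl24, an exit site protein, fell by 0.44 ± 0.09, and Mrpl54 rose by 0.71 ± 0.18. The mean of the Mrpl54 probe sets rose by 0.30 and was not called (limma, adjusted p = 0.1). Mrpl52 rose by 1.04 ± 0.18 by its brightest probe set, but its other 3 probe sets differed by 0.04, 0.08 and -0.15, none of them called, so its rise is uncertain. Mrpl15 fell by 0.46 ± 0.10, and 1 of its other probe sets rose by 0.87. The mean of its probe sets differed by -0.21 and was not called (limma, adjusted p = 0.29). With centred arrays, which shifted the all-gene median by -0.17, 3 genes were higher and 24 lower and the median turned to -0.10. With quantile normalization, which moved it by -0.10, 9 were higher and 16 lower. The count of 24 was 14, 13 and 12 without Rb villi 1, 2 and 3 and 15 without QKO villi 2. In the same comparison 13 of 15 dividing cell markers fell, 2 of 3 stroma markers and 1 of 3 T cell markers rose, all 3 enteroendocrine markers rose and all 3 goblet markers fell. Their part was not tested.

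Between QKO and TKO villi 3 of the 76 genes were called, beside 6.68% of all genes (5.51% higher, 1.17% lower). Among the 9161 brighter genes fitted alone 9.15% were called, 663 as higher and 175 as lower. Mrpl52 was higher by 0.69 ± 0.18, and by the mean of its probe sets it differed by -0.01. Mrpl34 and Mrpl15 were lower by 0.47 and 0.43. The mean of the Mrpl34 probe sets differed by -0.15 and was not called (limma, adjusted p = 0.58). The calls were 0 without TKO villi 2 or 3, 1 without QKO villi 3, and 11 with centred arrays (1 higher, 10 lower) or quantile normalization (0 higher, 11 lower), where the median of -0.15 was -0.26 and -0.24. Centring moved the median of all genes by -0.12.

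**Figure D4:**
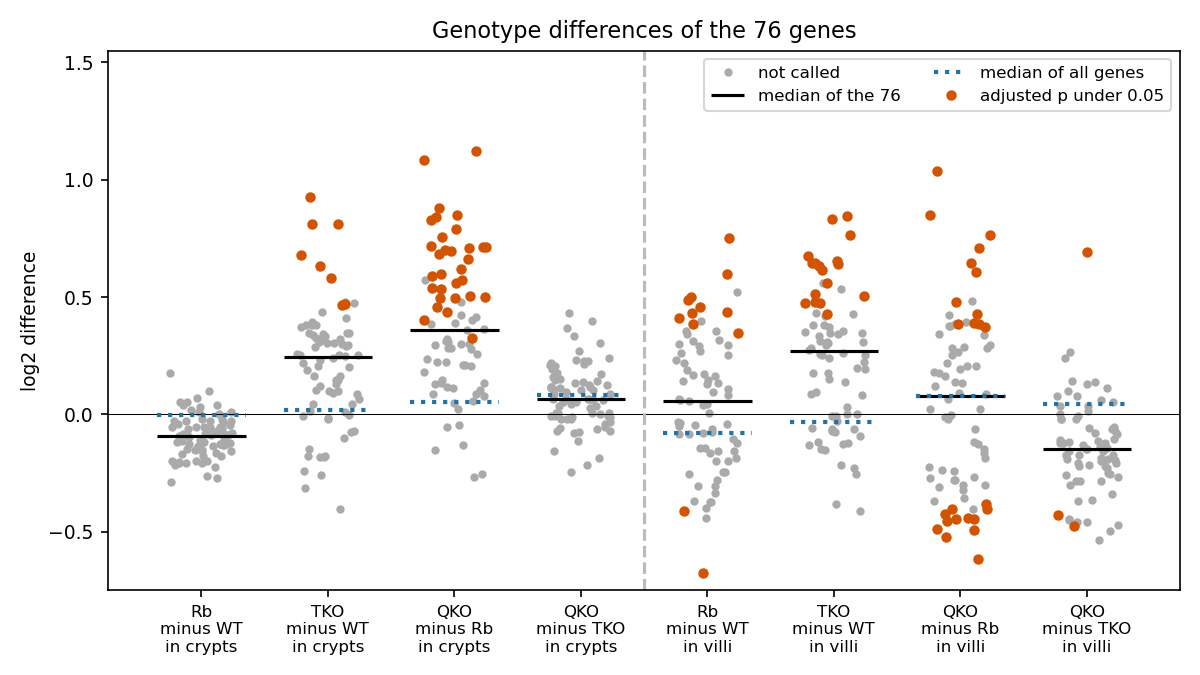
The log2 differences of the 76 genes are plotted for 4 genotype comparisons in crypts (left of the dashed line) and 4 in villi, with called genes in orange, a black line at their median and a dotted blue line at the median of all genes. The medians are 0.24 and 0.36 in the E2f comparisons of crypts, and the calls of QKO minus Rb villi lie on both sides of 0.

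Tests of the differences themselves called few of the genes between compartments. Rb minus WT differed between villi and crypts for 1 of the 76 genes, Mrpl13 (0.85 ± 0.20, adjusted p = 0.014), beside 5.22% of all genes (4.12% higher). TKO minus WT differed for 1, Mrps36 (-0.89 ± 0.22, adjusted p = 0.027), beside 3.43% of all genes (2.69% higher, 0.737% lower). Among the 9161 brighter genes fitted alone 11.4% were called in the Rb test (850 higher, 193 lower). In the TKO test 8.5% of them were called (618 higher, 161 lower). Mrps36 was higher in TKO than in WT crypts by 0.48 ± 0.16 (adjusted p = 0.079) and lower in TKO than in WT villi by 0.41 ± 0.16 (adjusted p = 0.11), neither of them called. Without 1 of 8 single arrays (WT crypts 2 or 3, WT villi 1 or 3, TKO villi 1 or 2, TKO crypts 1 or 3) its adjusted p was 0.053 to 0.088, and without TKO crypts 2 the count was 2. The Mrpl13 count was 2 without Rb crypts 1 or Rb villi 2. With centred arrays the TKO test, where all genes moved by -0.12 in the median, called 2.

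In villi, the QKO minus TKO difference differed from that of Rb minus WT for 11 of the 76 genes, beside 15.4% of all genes called and 6.52% called lower. It was the lower of the 2 for all 11 (median of the 76, -0.23). Of the 9161 brighter genes fitted alone 27.7% were called in this test, 1300 as higher and 1242 as lower. Mrpl13 was higher by 0.75 ± 0.14 in Rb than WT villi and differed by -0.21 ± 0.14 between QKO and TKO villi, a difference of -0.96 ± 0.20 (adjusted p = 0.0023). Its QKO villus arrays read 10.14, 10.36 and 9.74 beside 10.45, 10.32 and 10.08 in TKO villi, and these groups overlapped. Mrpl15 gave -0.88 ± 0.15, Mrps22 -0.88 ± 0.24 and Mrps30 -0.73 ± 0.24 in this test. The call of Mrps30 was lost without any 1 of 8 arrays (WT villi 2 or 3, Rb villi 1, 2 or 3, TKO villi 1 or 2, QKO villi 3; adjusted p 0.06 to 0.12). Quantile normalization, which shifted the all-gene median by -0.11 here, gave 15 lower and 0 higher. All 15 dividing cell markers were lower in it (median -2.81). The count of 11 was 5 without WT villi 2 or QKO villi 3, 6 without Rb villi 2, Rb villi 3 or TKO villi 2, and 7 without TKO villi 1.

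**Figure D5:**
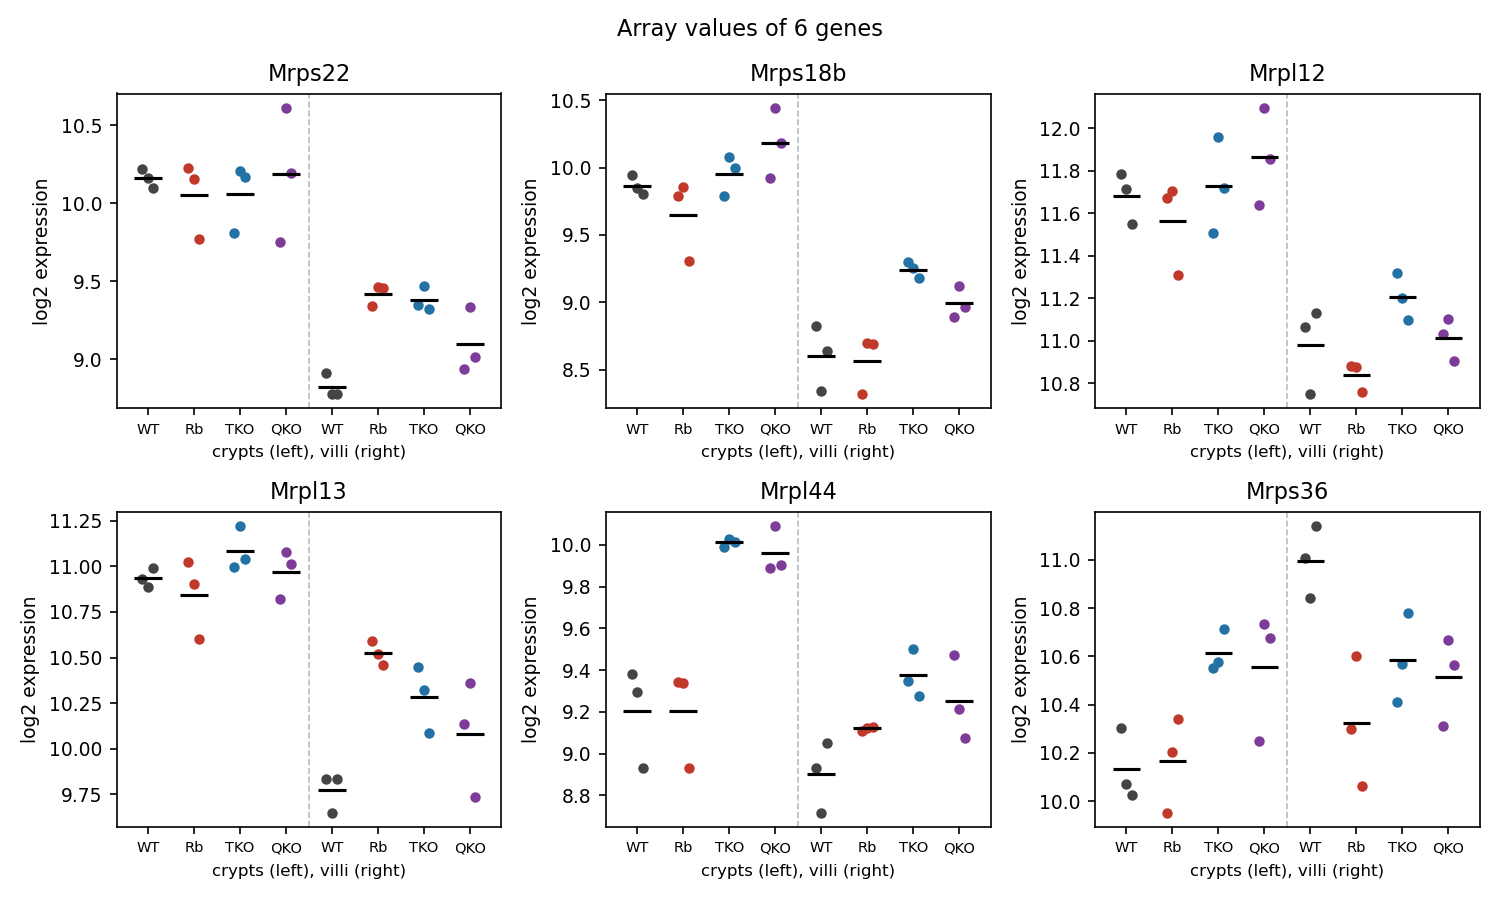
Log2 values of 6 genes are plotted for each array, with crypts left and villi right of the dashed line, points for the 3 arrays of a group and a line at their mean. The means of Mrps22, Mrps18b, Mrpl12 and Mrpl13 are lower in the villi of each genotype, though Mrpl13 was not called in Rb (-0.32 ± 0.14), Mrpl44 is high in TKO and QKO crypts, and Mrps36 is highest in WT villi, at 10.84 to 11.14.

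Many of these genes start back to back with another gene. Of the 67 with a promoter entry, 22 (32.8%) had a neighbour on the other strand starting within 500 bases and running away from it, beside 10.1% of all promoters and 13.5% of those of tested genes. Mrpl46 and Mrps11, 1 of each subunit, start 42 bases apart, and Mrps12 starts 147 bases from Sars2, the mitochondrial seryl-tRNA synthetase gene. The pairs below were chosen after their values were seen. In WT villi minus crypts Mrps12 and Sars2 fell by 0.65 ± 0.14 and 0.78 ± 0.20. Mrpl18 and Tcp1, a subunit gene of the cytosolic chaperonin, fell by 0.52 ± 0.13 and 1.20 ± 0.13. Other pairs went apart: Mrpl27 differed by 0.20 ± 0.11 (not called) and its neighbour Eme1, a DNA repair nuclease subunit, fell by 1.28 ± 0.17. Mrpl2 fell by 0.75 ± 0.14 while Klc4 rose by 0.57 ± 0.12. Mrpl49 fell by 0.80 ± 0.13 and Fau, which encodes a cytosolic ribosomal protein, differed by 0.04 ± 0.10 (not called). In Rb minus WT villi, Mrpl57 differed by -0.08 ± 0.14 (not called) and its neighbour Ska3, a mitotic spindle gene, rose by 2.14 ± 0.20.

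The other probe sets of the same genes gave a check of the values. In WT villi minus crypts, the called genes had 61 further probe sets, of which 25 were called the same way, 0 the opposite way and 36 not. In QKO villi minus crypts, 41 of 71 were called the same way and 3 the opposite way. Those 3, of Mrpl21, Mrpl42 and Mrps21, had means of 6.12, 3.27 and 3.90, below the median of all genes, as did 42 of the 80 further probe sets.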

How the data were processed

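The data were Affymetrix mouse array values for 45101 probe sets on 24 arrays of small intestinal crypts and villi, made from total RNA (Trizol; 3 ug) through biotinylated cRNA, per the labels' protocols. Each deposited value is the log2 signal of 1 probe set on 1 array, from 2.29 to 14.9. For the authors' background correction, summary and normalization no method was stated in the labels. Probe sets with 1 gene symbol (34945) were kept; 932 with several genes, 9160 unnamed here and 64 controls were left out, and 34741 symbols were updated through Entrez identifiers. Each of the 18193 genes was given by its brightest probe set by mean. Within-group correlations were 0.978 to 0.995, and no 2 arrays were identical.

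Groups came from the labels. A model over all 8 groups was fitted in R 4.3.3 with limma 3.58.1 (lmFit, contrasts, eBayes with an intensity trend, 16 residual and 4.86 prior degrees of freedom). Its p-values were adjusted over all genes by the Benjamini-Hochberg method, called under 0.05 and checked on simulated data. Tables and figures used pandas 2.3.3 and matplotlib 3.10.9. The number of arrays limits the precision. Genes named with tests were, in each comparison, the 3 called members (6 in the villi minus crypts and villus genotype comparisons) with the largest rise and fall, called members against the main direction, members with a set role, and those whose probe sets disagreed. For other lists they were the 3 called genes with the smallest p. The rule also listed the members with the highest and lowest levels, which are not named because levels of different probe sets are not compared. Members and lists were chosen with earlier results of these data known.

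Same-numbered crypt and villus arrays deviated together in TKO (correlations 0.61, 0.55 and 0.64) and QKO (0.55, 0.25 and 0.37), where the numbers may pair samples, but not in WT (0.01, 0.13 and 0.00) or Rb (0.06, -0.01 and -0.24). Alternatives were quantile normalization, centring, no intensity trend, removal of dim genes, the mean of all probe sets, only the groups compared, array weights, the replicate block, leaving out both arrays whose Rb1 goes against the label, sex as a covariate, and leaving out each array.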

Additional observations from a re-analysis of the deposited data

Results flagged for a closer look

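Tests of a difference between groups flagged 6 results, given here as values. Between compartments, the log2 difference of Rb minus WT for Mrpl13 differed by 0.85, and that of TKO minus WT for Mrps36 by -0.89. In villi, the difference of QKO minus TKO less that of Rb minus WT was -0.96 for Mrpl13, -0.88 for Mrpl15, -0.88 for Mrps22 and -0.73 for Mrps30. The calls of Mrps36 and Mrps30 were lost on leaving out any 1 of several arrays, as given with those results.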

How the results depend on the processing

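The 131 called values of named genes were each fitted under 10 alternatives besides leaving out 1 array at a time. Of these 1310 values 1200 stayed called in the same direction, 109 were no longer called and 1 reversed. The reversed value was Mrpl52 in QKO minus TKO villi, which was -0.012 (limma, adjusted p = 0.98) by the mean of its probe sets. Leaving out single arrays kept 657 of 822 calls and lost 165, with no reversal. The causes were not tested, beyond the smaller number of arrays in some fits.

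Of 150 counts of called genes under these alternatives 120 stayed within 1.5 times and 30 moved. With array weights the counts were 56 in Rb villi minus crypts, 16 in TKO minus WT crypts, 28 in Rb minus WT villi, 36 in TKO minus WT villi, 17 in the villus test of QKO minus TKO against Rb minus WT, and 6 and 6 in the tests of Rb and TKO effects between compartments. With only the groups compared they were 4 in TKO minus WT crypts, 12 in QKO minus Rb crypts, 13 in QKO minus Rb villi, 0 in QKO minus TKO villi, and 3 and 2 in the Rb and TKO tests between compartments. With both arrays that go against their Rb1 label left out they were 13 in Rb villi minus crypts, 1 in TKO minus WT crypts and 0 in the TKO test between compartments. With sex as a covariate they were 4 in TKO minus WT crypts, 16 in QKO minus Rb crypts, 6 in Rb minus WT villi and 7 in TKO minus WT villi. In QKO minus Rb crypts the covariate cannot tell sex and genotype apart, since those groups differ wholly in sex. Centring gave 19 in QKO minus Rb crypts, 11 in QKO minus TKO villi and 2 in the TKO test between compartments, and quantile normalization gave 11 in QKO minus TKO villi. The mean of probe sets gave 1 in QKO minus TKO villi, and 2 and 4 in the Rb and TKO tests between compartments, where removing dim genes gave 4 and 2.

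The replicate block gave 53, 39, 58 and 70 calls in villi minus crypts of WT, Rb, TKO and QKO, and 3 in the Rb test between compartments. It moved no other count by over 1.5 times, and in WT, where same-numbered arrays did not deviate together, Mrpl14 was not called with it (adjusted p = 0.057). In Rb, crypts 1 and 3 read as female and villi 1 and 3 as male by Eif2s3y. Those numbers thus do not pair samples of 1 animal, and the block count of Rb rests on them.

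Leaving out 1 array at a time gave 45 to 53, 14 to 44, 18 to 51 and 63 to 70 calls in villi minus crypts of WT, Rb, TKO and QKO. In crypts it gave 0 for Rb minus WT, 1 to 8 for TKO minus WT, 19 to 35 for QKO minus Rb and 0 for QKO minus TKO. In villi it gave 5 to 8, 6 to 14, 12 to 21 and 0 to 3 in the same order. It gave 1 to 2 and 0 to 2 in the Rb and TKO tests between compartments and 5 to 13 in the villus test.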
